A study of Mus musculus with 4 samples.

Results

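The peaks described here are the differentially accessible regions that the deposited table names for a gene of the respiratory chain or the ATP synthase. They were the rows whose gene symbol began with Nduf (complex I), Sdh followed by a, b, c or d (complex II), Uqcr (complex III), Cox followed by a digit (complex IV) or Atp5 (complex V). This rule found 21 peaks of 19 genes among 5332 peaks of 4376 genes. Complex I had 7 peaks, complex II had 2, complex III had 0, complex IV had 6 and complex V had 6. All 21 were more accessible in Sin3B-/- than in Sin3B+/+ cells, by 1.45-fold to 1.95-fold, and 12 of them lay at a promoter.

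The respiratory chain sits in the inner mitochondrial membrane. Complexes I and II pass electrons from NADH and succinate to coenzyme Q, complex III passes them on to cytochrome c, and complex IV passes them to oxygen. Complexes I, III and IV pump protons out of the matrix, and the ATP synthase, complex V, uses the returning protons to make ATP. Long-term hematopoietic stem cells (LT-HSCs) are known for low mitochondrial activity at rest and for a rise in respiration when they leave quiescence. Most subunits are encoded in the nucleus, and NRF1, GABP and YY1 are transcription factors known for binding their promoters.

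ATAC-Seq measures how readily the Tn5 transposase cuts chromatin, and so how accessible a region is, but not how much a gene is transcribed. Each genotype, Sin3B+/+ and Sin3B-/-, was measured in 2 ATAC-Seq libraries, and the cells of 2 mice were pooled for each of these 4 libraries (8 mice). The LT-HSCs were sorted from C57BL/6 bone marrow at homeostasis as Lin-, Sca-1+, cKit+, Flk2-, CD48- and CD150+ cells. Sin3B, a scaffold of a histone deacetylase complex, was deleted by Vav1-iCre on a Sin3B-flox background, and Vav1-iCre acts in the whole hematopoietic system, so the deletion was not limited to LT-HSCs. The age of the mice and the Cre status of the Sin3B+/+ mice are not given in the labels.

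The table held no peak named for Sin3b, so the deletion could not be checked in these values. Of 10 LT-HSC marker genes, 5 had a differential peak (6 peaks), and of 9 genes of other lineages 1 had a peak, near Klf1, beside 15.7% of all protein-coding genes. These counts do not test the identity of the sorted cells, since the table holds only differential peaks. The authors had kept the peaks of the table for a genotype difference at an FDR below 0.05, so a call of higher or lower within it is a description. The rows used here are fewer than the differential peaks the study counted, so a gene without a peak here is not shown to lack one. The levels are read numbers scaled by a factor that is the same for all peaks of a library. Each level was a whole multiple of a step in that library (to within 0.01 level units), and counted in these steps the 21 peaks held 312 to 5432 reads in Sin3B+/+ replicate 1, 196 to 2600 in replicate 2, 187 to 2382 in Sin3B-/- replicate 1 and 132 to 1622 in replicate 2. The median count of the 21 peaks was 1805 and 1089 in Sin3B+/+ and 935 and 649 in Sin3B-/-. The step per read was 0.23 and 0.34 in Sin3B+/+ and 0.62 and 1.0 in Sin3B-/-. The higher Sin3B-/- levels described here are thus levels after scaling, and their direction depends on these factors. A count of 3 reads would have been a level of 0.684 to 3.0, well under the lowest level among these peaks.

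Short matches to the motifs of NRF1, YY1 and the ETS family, to which GABP belongs, were looked for in the central 300 bp of each peak, since these factors are known for this gene family. The 30-base stretches that held 1 are printed 5′ to 3′ with the match in capitals, from mm10 (GRCm38). The first 3 are NRF1 matches (GCATGCGC) in the peaks of Ndufaf4 (chr4:24898073-24898102, minus strand), Atp5g2 (chr15:102671070-102671099, minus strand) and the second peak of Atp5o (chr16:91869559-91869588, minus strand). The next 3 are YY1 matches (AANATGGC) in the peaks of Ndufaf8 (chr11:120098933-120098962, plus strand), Ndufs8 (chr19:3912921-3912950, minus strand) and Atp5j (chr16:84835046-84835075, minus strand). The last is a match to the core shared by ETS factors, GABP among them (CCGGAAGT), in the peak of Cox14 (chr15:99725641-99725670, plus strand).
Ndufaf4: gtacgcacggaGCATGCGCacaccaggggc
Atp5g2: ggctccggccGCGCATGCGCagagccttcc
Atp5o peak 2: cacccggggggGCATGCGCagagctactcc
Ndufaf8: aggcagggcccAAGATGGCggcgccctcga
Ndufs8: ctctctgatacAACATGGCagctccctaca
Atp5j: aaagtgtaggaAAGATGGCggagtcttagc
Cox14: agaggtagaagCCGGAAGTtcaaggctggc
In Atp5g2 the NRF1 match is the palindrome GCGCATGCGC, which holds the motif on both strands in overlapping positions and is counted once.

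The Ndufaf4 promoter also held the palindrome found in Atp5g2, upstream of the window and apart from its single NRF1 match. It is printed as the 120 bases before the RefSeq start of Ndufaf4 (chr4:24897963-24898082, GRCm38, plus strand), a stretch that overlaps no annotated exon.
Ndufaf4 upstream: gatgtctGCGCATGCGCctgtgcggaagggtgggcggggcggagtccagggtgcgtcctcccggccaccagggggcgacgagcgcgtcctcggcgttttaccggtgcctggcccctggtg

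In all 21 peaks both Sin3B-/- libraries lay above both Sin3B+/+ libraries, as they did in 95.7% of the table. By limma on log2(level + 1), with Benjamini-Hochberg adjustment over all 5332 peaks, 21 of 21 were called higher in Sin3B-/- at an adjusted p of 0.05, against 95.7% of the table, so the calls say nothing particular about these genes. The median log2 fold change of the 21 peaks ranged from 0.56 to 0.76 when 1 library was left out. limma assigned the same standard error of 0.22 log2 units to every peak, so the adjusted p followed only the size of the change. An exact permutation test of 2 against 2 libraries cannot give a p below 0.33. More cells with an open site and more openness per cell cannot be told apart in pooled cells.

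The lowest Sin3B-/- level was between 1.14 times (the second Atp5o peak) and 1.64 times (the first Cox7a2l peak) the highest Sin3B+/+ level. The median log2 fold change of the 21 peaks was 0.66 (quartiles 0.58 and 0.82), against 0.76 over the whole table. None of the 21 reached a 2-fold change, which 22.8% of the table and 7.43% of its promoter peaks did. The median level over the table was itself 0.75 log2 units higher in Sin3B-/-. When each library was centred on its own median, 0 of 21 peaks were called higher (7.01% of the table) and 0 were called lower (4.29% of the table), and 15 of 21 were below 0, with a median of -0.10. Of the whole table, 49.2% fell below 0, and of its promoter peaks 70.9% did. A genotype effect on most peaks and a scaling difference between libraries cannot be told apart in these values.

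**Figure D1:**
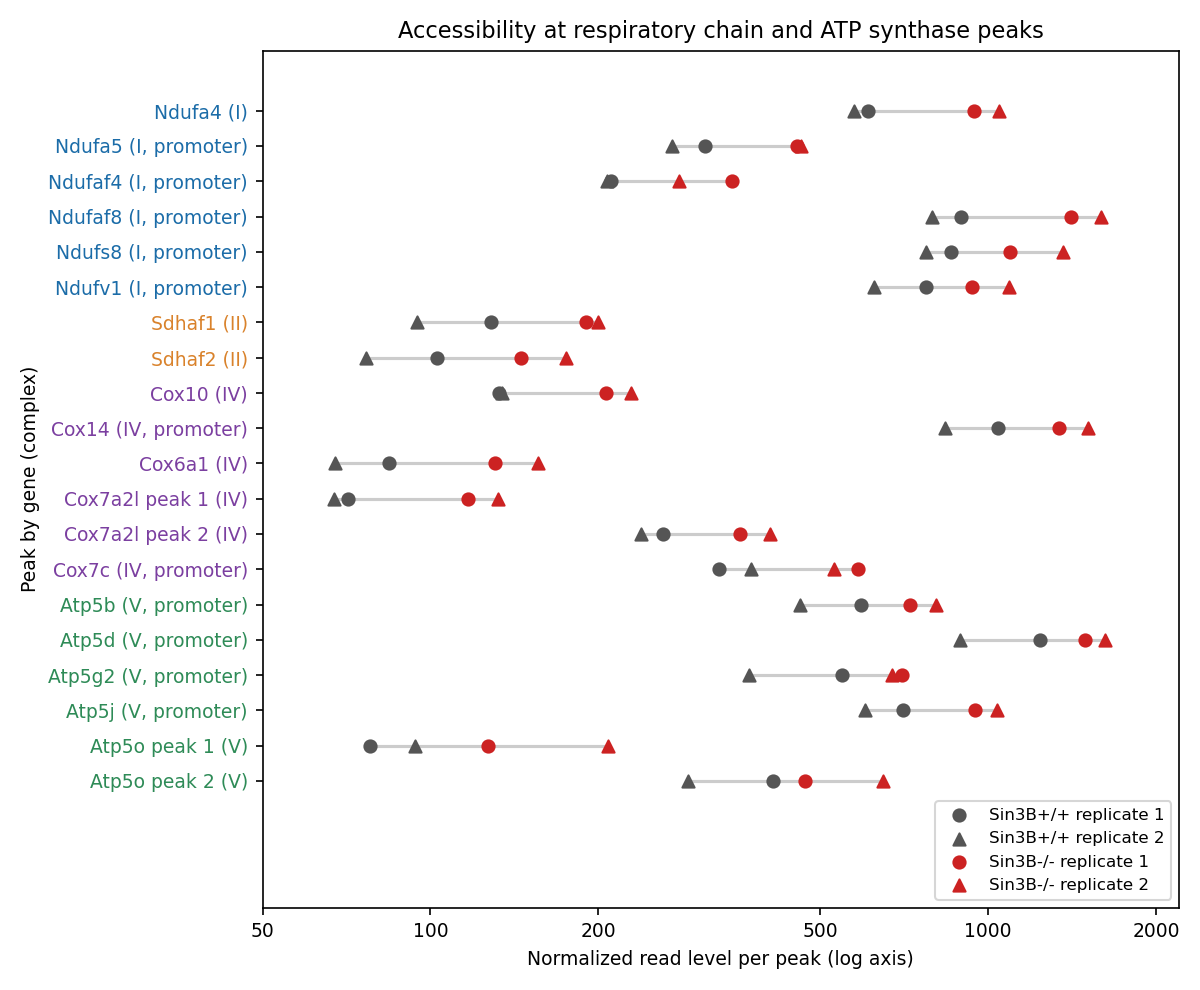
Normalized read level (log axis) of 20 of the 21 peaks in the 4 libraries, with Sin3B+/+ in grey and Sin3B-/- in red, circles for replicate 1 and triangles for replicate 2, and the gene names coloured by complex. In every peak both red points lie right of both grey points, and the gap is smallest in the second Atp5o peak, where the ratio of the nearest libraries was 1.14.

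Complex I, the NADH dehydrogenase, was represented by 7 peaks, with Ndufa4 counted here by its name. Their median log2 fold change was 0.58 (0.54 to 0.83). The list held the catalytic core, accessory and assembly parts, and 6 of the 7 peaks were at the promoter of the named gene. Ndufaf8, an assembly factor, had the largest change of the complex. Its level was 893 and 793 in the Sin3B+/+ libraries and 1406 and 1593 in the Sin3B-/- libraries, a 1.78-fold rise (log2 0.83, SE 0.22, adjusted p = 0.00027 by limma). The groups were far apart, and per kb of peak width this was the highest of the 21 peaks (1343 level units per kb). The peak (chr11:120098528-120099399) was centred 19 bp inside the gene's start, which it shares with the divergent gene Tepsin, and it holds the YY1 match printed above. It was the promoter peak of the family that stayed above 0 after centring (0.08), and the other 11 promoter peaks fell below 0. Of the table's promoter peaks, 70.9% fell below 0.

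Ndufa5, an accessory subunit of the matrix arm, was at 310 and 271 in Sin3B+/+ and at 454 and 462 in Sin3B-/- (log2 0.66). The Sin3B-/- libraries were close to each other here. The peak (chr6:24527285-24528023) was also in the promoter of Asb15. Ndufs8 and Ndufv1 are core subunits: Ndufv1 takes the electrons from NADH, and Ndufs8 carries iron-sulfur clusters. Their changes were among the smaller ones of the family, with log2 fold changes of 0.54 for Ndufv1 and 0.58 for Ndufs8.

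Ndufs8 went from 859 and 774 to 1092 and 1360, with its peak (chr19:3912399-3913198) centred 24 bp upstream of the start. Ndufv1 went from 773 and 623 to 933 and 1088, the smallest change of the 21 peaks (log2 0.54, adjusted p = 0.013 by limma), with its peak at chr19:4012371-4013307. In both genes, too, the genotypes did not overlap, but the libraries of a genotype were also apart, by 1.11-fold to 1.25-fold.

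Ndufaf4, another assembly factor, had the lowest level per kb of the complex (391 level units per kb), with a level per peak of 211 and 207 in Sin3B+/+ and 347 and 279 in Sin3B-/- (log2 0.57). Its peak (chr4:24897825-24898492) covers both the NRF1 palindrome and the single NRF1 match printed above. Here replicate 1 was the higher Sin3B-/- library, which held in 3 of the 21 peaks. The peak named for Ndufa4, now counted as a complex IV subunit despite its name, differed from the others in place. It is intergenic (chr6:11593488-11594571), with its centre 313364 bp downstream of the Ndufa4 start, and no annotated start is nearer. In Sin3B+/+ it was at 609 and 574 and in Sin3B-/- at 942 and 1047 (log2 0.75). Per kb of peak width it had the highest level of the family's 9 peaks outside promoters (732 level units per kb).

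Complex II, succinate dehydrogenase, was represented only by peaks named for 2 assembly factors, and the 4 subunit genes Sdha, Sdhb, Sdhc and Sdhd had no peak in the table. Sdhaf1 helps to insert iron-sulfur clusters into Sdhb. Its peak (chr7:30331920-30332349) was at 128 and 94.6 in Sin3B+/+ and at 190 and 200 in Sin3B-/- (log2 0.82, SE 0.22, adjusted p = 0.000325 by limma). Sdhaf2 helps to attach FAD to Sdha. Its peak (chr19:10497517-10498118) was at 103 and 76.8 in Sin3B+/+ and at 146 and 175 in Sin3B-/- (log2 0.84). Both had low levels for their width (356 and 208 level units per kb), and neither was at a promoter. The first was 8239 bp upstream of the Sdhaf1 start. The second was 27298 bp downstream of the Sdhaf2 start and nearer to the start of Ppp1r32, at 14889 bp.

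Complex III, cytochrome bc1, had no peak named for any of its 8 Uqcr genes. The promoters of 2 of them nevertheless held a peak of the table that carries the name of a divergent neighbour. These peaks, and 4 like them in complex I, were found from position after the values had been seen and are not among the 21. The promoter of Uqcrh, the hinge subunit, held the peak named for Lrrc41 (chr4:116074758-116075995), at 643 and 453 in Sin3B+/+ and 784 and 879 in Sin3B-/- (log2 0.62). The promoter of Uqcr10, a small subunit, held the peak named for Zmat5 (chr11:4703962-4705100), at 299 and 255 and at 379 and 466 (log2 0.60). The complex I genes were Ndufb5 (named Mrpl47, log2 0.54), Ndufa11 (named Vmac, 0.55), Ndufb11 (named Rbm10, 0.63) and Ndufa2 (named Ik, 0.71). So complex III had no peak by name, and 2 of its 8 genes had one by promoter position. The other Uqcr genes had neither.

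Complex IV, cytochrome c oxidase, was represented by 6 peaks of 5 genes with a median log2 fold change of 0.68 (0.61 to 0.91), and 2 of them were at promoters. Cox6a1, a subunit of non-muscle tissues, had the largest change of the complex. It was at 84.4 and 67.5 in Sin3B+/+ and at 131 and 156 in Sin3B-/-, a 1.89-fold rise (log2 0.91, SE 0.22, adjusted p = 7e-05 by limma). This peak (chr5:115347570-115347989, 261 level units per kb) lies in an intron, 1202 bp downstream of the start. Cox10 makes the heme A precursor of the enzyme. Its peak (chr11:64036976-64038119), in an intron 41919 bp from the start, was at 133 and 134 in Sin3B+/+ and at 207 and 229 in Sin3B-/- (log2 0.70).

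Cox7a2l joins complexes III and IV in supercomplexes and had 2 peaks, both upstream of the gene. The first, 8975 bp upstream (chr17:83523036-83523575), was at 71.2 and 67.2 in Sin3B+/+ and at 117 and 132 in Sin3B-/- (log2 0.84), with the widest gap between the genotypes of all 21 peaks. The second, 13295 bp upstream (chr17:83527151-83528099), was at 261 and 239 and at 359 and 406 (log2 0.61). The first had the lower level per kb (179 against 333 level units per kb) and the larger change.

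The promoter peaks of complex IV had higher levels per kb, 1282 for Cox14 and 548 for Cox7c. Cox14, a small assembly factor, was at 1042 and 836 in Sin3B+/+ and 1339 and 1509 in Sin3B-/- (log2 0.61). The peak (chr15:99725254-99726175) is centred 96 bp after the start and holds the ETS/GABP match. Cox7c, a small membrane subunit, was at 330 and 376 in Sin3B+/+ and at 584 and 529 in Sin3B-/- (log2 0.66), at chr13:86046199-86047028. It was among 3 of the 21 peaks in which Sin3B+/+ replicate 2 was above replicate 1.

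Complex V, the ATP synthase, was represented by 6 peaks of 5 subunit genes with a median log2 fold change of 0.60 (0.55 to 0.92), and 4 were at promoters. Atp5b is the catalytic beta subunit and Atp5d belongs to the central stalk that turns inside it. Atp5d had the most reads of the 21 peaks, though not per kb (1019 level units per kb), with levels of 1239 and 891 in Sin3B+/+ and 1488 and 1622 in Sin3B-/- (log2 0.56, SE 0.22, adjusted p = 0.0095 by limma). The Sin3B+/+ libraries were 1.39-fold apart and the Sin3B-/- libraries 1.09-fold. The peak (chr10:80141217-80142502) covers an annotated start of the gene. Atp5b was at 592 and 460 and at 723 and 806 (log2 0.55), in a peak (chr10:128082878-128083473) centred 98 bp before the start and shared with the promoters of Snord59a and Gm47438.

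Atp5g2 encodes a copy of the c subunit, which forms the proton-driven ring. It was at 546 and 373 in Sin3B+/+ and at 700 and 671 in Sin3B-/- (log2 0.60). Its peak (chr15:102670706-102671530) holds the NRF1 palindrome. Atp5j encodes coupling factor F6 of the peripheral stalk and was at 703 and 603 and at 945 and 1037 (log2 0.60). The Atp5j peak (chr16:84834481-84835745) covers a bidirectional promoter whose other gene is Gabpa, the DNA-binding subunit of GABP. The nearest start, at 11 bp from the peak's centre, was that of Gabpa, and the Atp5j start was at 390 bp. No peak carried the name of Gabpa.

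Atp5o, the oligomycin sensitivity subunit of the peripheral stalk, had 2 peaks, and neither was near the start of the short Atp5o gene. Both lie in introns of Itsn1 and of a long Atp5o model on the opposite strand, 62070 and 57405 bp from that model's start. The first (chr16:91864607-91865217) was at 78.0 and 93.9 in Sin3B+/+ and at 127 and 208 in Sin3B-/-, a 1.95-fold rise and the largest change of the 21 (log2 0.92, SE 0.22, adjusted p = 6.3e-05 by limma). This value leaned on Sin3B-/- replicate 2: it was 0.56 without that library and 1.27 without replicate 1. The median of the 21 peaks was 0.63 without replicate 2. The second (chr16:91869129-91870025) was at 412 and 290 in the controls and at 470 and 649 in Sin3B-/- (log2 0.67). The spread within each genotype was wide here, and this peak had the narrowest gap between the genotypes.

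Across complexes the size of the change went with the place of the peak. The 12 promoter peaks had a median log2 fold change of 0.59 (0.54 to 0.83) and the other 9 had 0.82 (0.61 to 0.92). The same order held in the table, at 0.67 for promoter and 0.84 for other peaks among those higher in Sin3B-/-. The promoter peaks of the family also had higher levels, with a median of 734 against 153 for the others. A negative relation of change to level is built into a table kept by FDR. Whether place goes with the change apart from level was not tested. Promoter peaks alone gave medians of 0.58 in complex I, 0.63 in complex IV and 0.58 in complex V. The other peaks gave 0.75 (1 peak) in complex I, 0.83 (2 peaks) in complex II, 0.77 (4 peaks) in complex IV and 0.80 (2 peaks) in complex V. The 1 peak of complex I is that of Ndufa4, placed there by its name only. The ranges of the complexes overlapped, and with 1 to 6 peaks in each no difference between complexes was tested.

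**Figure D2:**
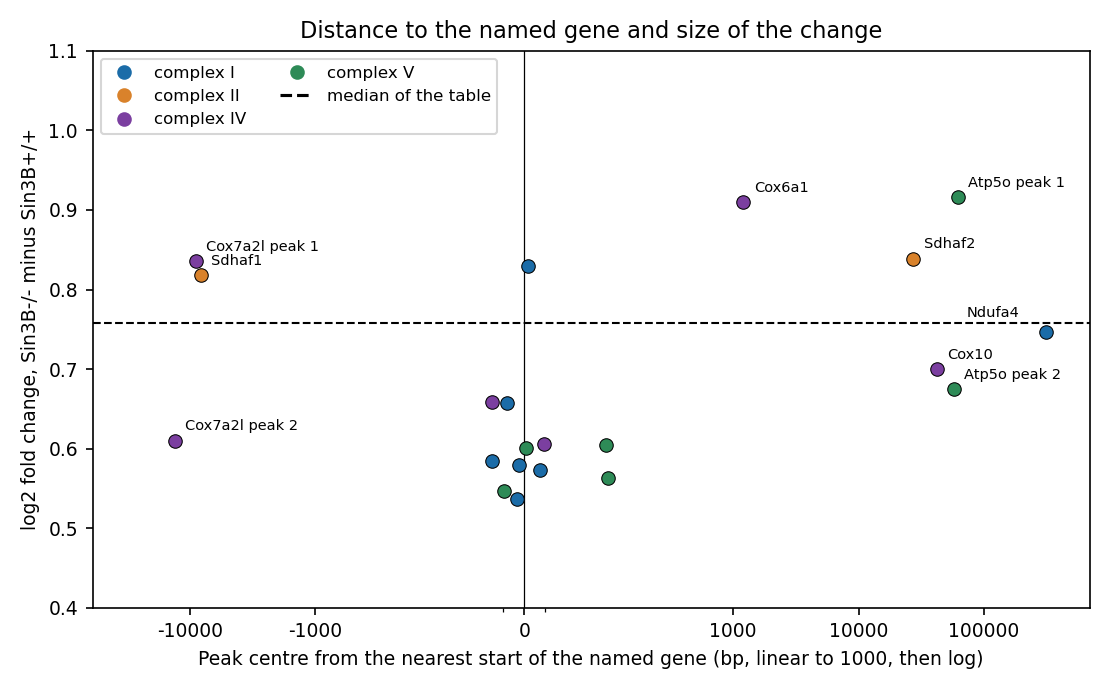
log2 fold change against the distance of the peak's centre from the nearest start of the named gene in bp (linear to 1000 bp, then log), coloured by complex, with the 9 peaks outside promoters named and a dashed line at the median of the table, 0.76. The 12 promoter peaks near 0 bp lie below the line except Ndufaf8 at 0.83, and 5 of the 9 named peaks lie above it.

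The change was also set beside the level. A peak of low level could enter a table kept by FDR only with a large change, so a negative relation between them is built into the table and is no result about these genes. Over the 21 peaks Spearman's rho between mean level per peak and log2 fold change was -0.638, over the 9 peaks outside promoters it was -0.733 and over the 12 promoter peaks it was -0.105. These are descriptions across peaks that share the 4 libraries. The table higher in Sin3B-/- gave -0.677 over 5103 peaks. The median level per kb of peak was 803 for the promoter peaks and 261 for the others, against 737 and 287 in the table. The GC content of the central window had a median of 58.8% in the promoter peaks and 50.7% in the others, against 59.7% and 51.7% in the table.

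**Figure D3:**
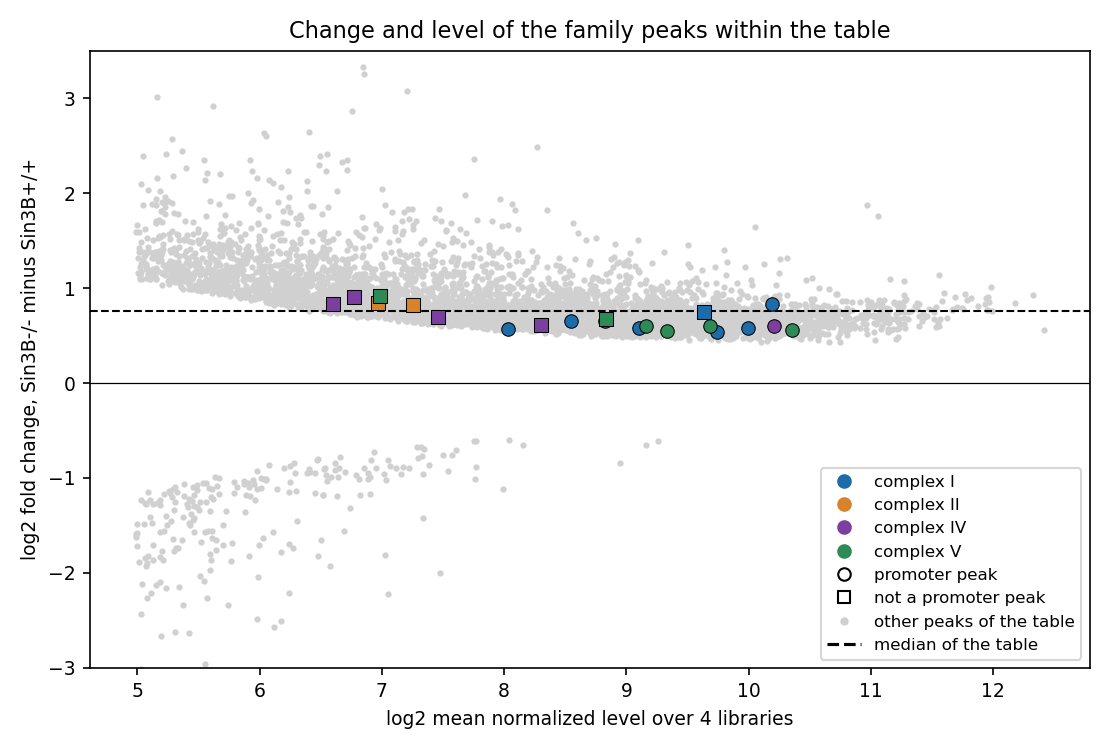
log2 fold change against log2 mean level for the 21 peaks (coloured by complex, circles for promoter peaks and squares for others) over the other peaks of the table in grey, with a dashed line at the table's median of 0.76 and 6 grey peaks below the axis not shown. The family's peaks lie along the lower part of the upper cloud, between 0.54 and 0.92, and none lies below 0.

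Promoter peaks made up 57.1% of the family's peaks (12 of 21, 95% Wilson interval 36.6 to 75.5%, counting error only) and 33.3% of the table. A promoter peak here had its centre between 1000 bp upstream and 100 bp downstream of any annotated start. The share was 85.7% in complex I, 0% in complex II, 33.3% in complex IV and 66.7% in complex V. These shares keep Ndufa4, which is outside a promoter, in complex I by its name. Structural subunits had 69.2% of 13 peaks at promoters, with a median log2 fold change of 0.60. Assembly factors had 37.5% of 8 peaks there, with a median of 0.76.

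The annotation holds 107 protein-coding genes that match the name rule, counting both Atp5o models, and 19 of them (17.8%) had a peak by name, against 15.7% of all 21938 protein-coding genes. By promoter position, whatever the peak's name, 18 of the 107 genes (16.8%) had a differential peak, against 8.06% of all protein-coding genes. The latter include genes without an open promoter in LT-HSCs, which could not enter the table. A comparison with open promoters only was not made, so these shares do not set the family apart. These promoter peaks belonged to 10 of 46 genes in complex I, 0 of 8 in complex II, 2 of 8 in complex III, 2 of 27 in complex IV and 4 of 18 in complex V. Most of the family, 88 genes, had no peak by name. Apart from the 6 whose promoter held a peak named for a neighbour, their accessibility was not analysed here, because the table holds no peak without a differential call.

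**Figure D4:**
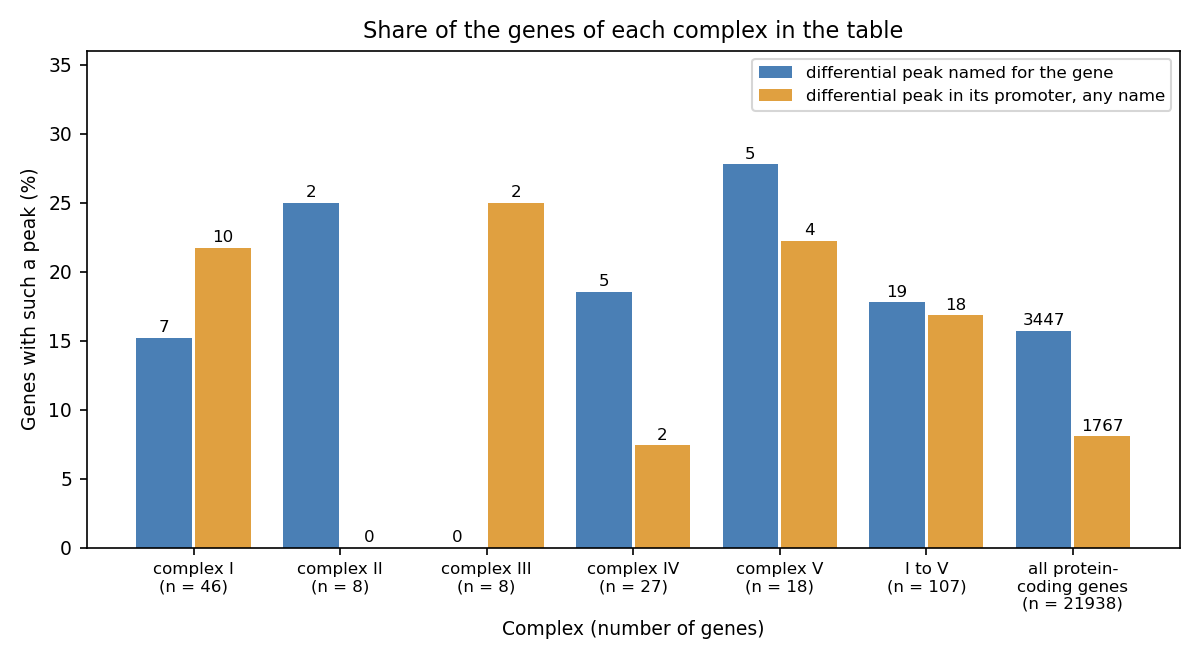
Share of the genes of each complex (%) with a differential peak named for the gene (blue) or located in its promoter under any name (orange), with the number of genes above each bar and the number of genes of the complex below it. Complex III has 0 genes by name and 2 by position, and the whole family has 17.8% by name and 16.8% by position, against 15.7% and 8.06% of all protein-coding genes. The latter include genes without an open promoter in LT-HSCs.

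Of 8 motifs, 5 were found in the central 300 bp of at least 1 of the 21 peaks, read on both strands without mismatch, and 10 peaks held at least 1. NRF1 (GCATGCGC) was in 3 of 21 peaks, against 1.69% of the table, and in 2 of the 12 promoter peaks, against 3.44% of the table's promoter peaks. YY1 (AANATGGC) was in 3 promoter peaks, against 9.69% of the table's promoter peaks. ETS/GABP (CCGGAAGT), at 1 peak, and E2F (TTTNNCGC), also at 1 peak (Atp5j), stood against 3.11% and 5.42% of the table. Both were in promoter peaks, against 6.98% and 8.95% of the table's promoter peaks. The SP/KLF box GGGCGG was in 5 peaks, 3 of them at promoters, against 57.7% of the table's promoter peaks. The cell cycle element CHR (TTTGAA), the CRE (TGACGTCA) and the ERR element (TCAAGGTCA) were in 0 of 21, against 13.6%, 1.99% and 0.338% of the table. The counts moved with the window: in whole peaks CHR was in 5 of 21 (32.0% of the table), SP/KLF in 14 (44.2%), YY1 in 6 (12.9%), E2F in 4 (12.4%), ETS/GABP in 2 (5.98%) and CRE in 1 (3.73%), and in 200 bp E2F was in 0. These counts are too small to set the family apart, and a match is not a bound site.

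The promoters of the family at large were searched as well. In the 91 RefSeq promoters of 85 family genes (300 bases, GRCm38), NRF1 was in 13.2%, YY1 in 23.1% and ETS/GABP in 9.89%, against 2.71%, 6.05% and 3.89% of 32851 RefSeq promoters. Of the 19 genes with a peak, 18 matched a RefSeq promoter by symbol.

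Genes around the respiratory chain behaved alike in direction. In 6 lists all differential peaks were higher in Sin3B-/- and 0 were lower, as in 95.7% of the table. The number of genes with a peak in each list stands beside the 15.7% of all protein-coding genes that had one, and no list was tested against it. Coenzyme Q synthesis, which makes the electron carrier between complexes I or II and III, had a peak for 7 of 13 genes, all 7 at promoters, with a median log2 fold change of 0.66. The largest was Coq7, a hydroxylase of the pathway, at 738 and 573 in Sin3B+/+ and 1017 and 1228 in Sin3B-/- (log2 0.78). Assembly factors whose names fall outside the rule had a peak for 9 of 29 genes (median 0.64). Uqcc1, needed for complex III assembly, changed most, from 38.1 and 46.3 to 77.5 and 92.0 (log2 0.99), at a peak 15167 bp inside the gene.

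The TCA cycle and pyruvate dehydrogenase list, which feeds electrons to complexes I and II, had a peak for 7 of 23 genes (median 0.66). Dlst, a subunit of the 2-oxoglutarate dehydrogenase complex, had the largest change, from 21.7 and 21.3 to 39.99 and 59.0 (log2 1.14). Other electron carriers had 2 of 5 genes, Etfa (0.61) and Etfdh (0.57). Regulators of mitochondrial gene expression had 3 of 23 genes: Tfb1m at 0.74, Ppard at 0.66 and Tfam, which packages mitochondrial DNA, at 0.50. Those beyond the largest change of a list were named after their values had been seen. The medians of these lists were all below the table's 0.76, like that of complexes I to V.

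Glycolysis had a peak for 8 of 19 genes, 9 peaks in all, with a median of 0.61 but the largest single changes of these lists. The peak in Pfkm, a phosphofructokinase subunit, rose 3.94-fold, from 26.9 and 23.0 to 84.4 and 112 (log2 1.92, SE 0.22, adjusted p = 2.7e-17 by limma). The peak in Gpi1, the glucose-6-phosphate isomerase, rose 3.46-fold, from 76.7 and 53.1 to 227 and 222 (log2 1.80). Both stayed above 0 after centring, at 1.17 and 1.05, and neither is a promoter peak. Changes of 2-fold or more were common in the table, at 22.8% of all peaks and 30.5% of those outside promoters. After centring, 38.3% of the peaks outside promoters fell below 0. These 2 peaks thus do not set glycolysis apart. Gpi1, the second of the list, was singled out after its values were seen.

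**Figure D5:**
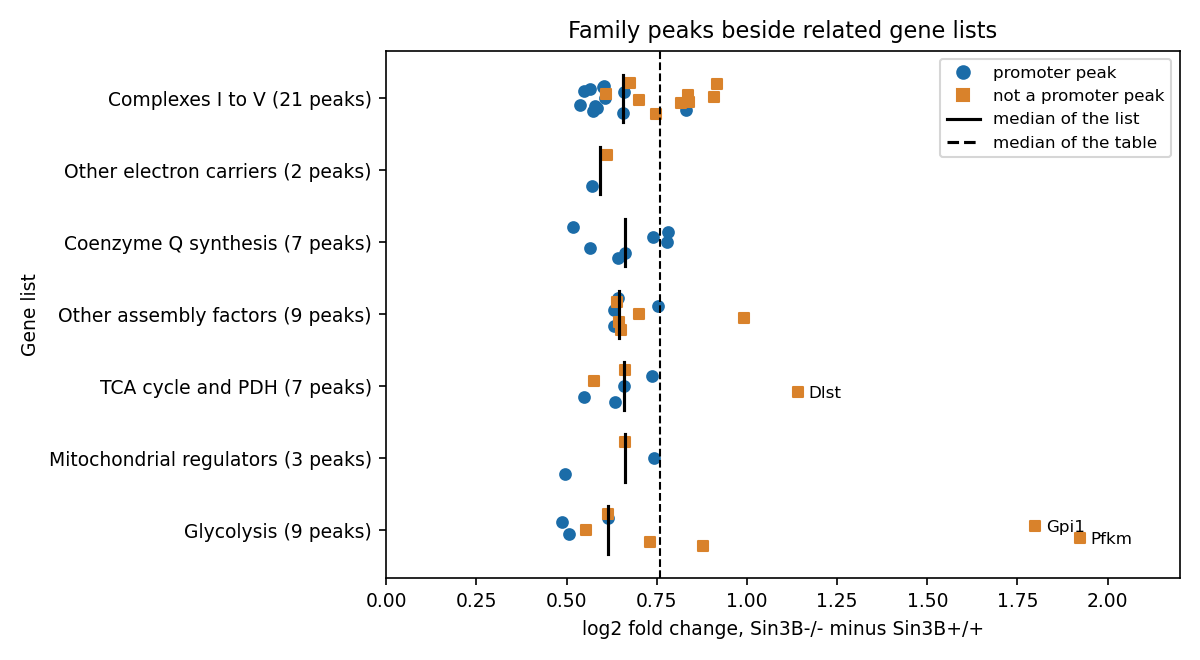
log2 fold change of the 21 peaks of complexes I to V and of the peaks of 6 related gene lists, with circles for promoter peaks, squares for other peaks, a short line at the median of each list and a dashed line at the median of the table, 0.76. All points lie above 0, the list medians lie between 0.59 and 0.66, and Pfkm (1.92), Gpi1 (1.80) and Dlst (1.14) lie far to the right.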

How the data were processed

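ATAC-Seq libraries of sorted LT-HSCs (2 per genotype, 12 PCR cycles) were grouped by the genotype in the labels. The authors trimmed and aligned the reads with bowtie2, removed duplicates with sambamba, called peaks with MACS2, and normalized and tested them with DiffBind and DESeq2. The deposited values per library are a signal, reads per peak times 1 factor per library. The deposited columns of level, fold, p-value and FDR hold the authors' own comparison and were not used. The submitters' processing notes list mm9, but 5330 of 5332 gene identifiers were found in GENCODE M21 and 96.6% of these had the same start and end, so coordinates are mm10 (GRCm38). Tool versions and total depth are not given in the sources used here.

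limma 3.58.1 (R 4.3.3) was fitted to log2(level + 1) over all 5332 peaks, a scale on which the pseudocount shrinks changes at low levels. The fit was also run on simulated data without a shift of the whole table between genotypes. That run does not test the fit under the shift seen here. The unit had not been known when tests were designed, and since the values are scaled, limma was used and the count test was not run. Fold changes are ratios of mean levels, and starts are those of GENCODE basic transcripts. Members and lists were chosen with earlier results of these data known. Values per library were due for the 3 largest changes and the highest level in each complex and for genes with 2 peaks, and related lists were to be named by their largest change. Alternatives were other pseudocounts, thresholds, filters, centring, promoter and motif windows, a replicate block and leaving out each library. The values of 1 member gene are not reported here, though it stays in the counts. Same-numbered libraries came from different mice. Python 3.11.15, pandas 2.3.3, scipy 1.17.1, pysam 0.24.0 and matplotlib 3.10.9 were used.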

Additional observations from a re-analysis of the deposited data

How the results depend on the processing

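All 21 peaks were called higher in Sin3B-/- with a pseudocount of 5, as were 5103 of the 5332 peaks of the table. The same 21 and 5103 were called with the spread allowed to follow the level (chosen after seeing the data). With the replicate number as a block, 21 were called, and 5064 in the table. At an adjusted p of 0.01, 19 of the 21 were called. Of the 20 that passed the filter on low levels, 20 were called, and 3954 in the table. The median log2 fold change was 0.66 with the replicate block. The deviations of same-numbered libraries correlated at -0.101, and the crossed pairing, also chosen after seeing the data, gave 21 calls. Leaving out 1 library leaves 1 in its genotype, assumed to vary like the others. For these fits only the size of the change is given, so the calls are not shown to hold in them. The median log2 fold change was then 0.63 and 0.70 without replicate 2 or 1 of Sin3B-/-. It was 0.56 and 0.76 without replicate 2 or 1 of Sin3B+/+. Centring the libraries left 0 calls and a median of -0.095, where the table's shift of 0.75 is removed by construction. Of 15 peaks below 0, the 14 reported by name were at -0.0056 for Ndufa4, -0.095 for Ndufa5, -0.18 for Ndufaf4, -0.17 for Ndufs8, -0.22 for Ndufv1, -0.052 for Cox10, -0.15 for Cox14, -0.14 for the second Cox7a2l peak, -0.094 for Cox7c, -0.21 for Atp5b, -0.19 for Atp5d, -0.15 for Atp5g2, -0.15 for Atp5j and -0.078 for the second Atp5o peak. Without assembly factors, 12 genes of the family had a peak, because fewer genes were counted. In whole peaks 18 of 21 held a motif, in 200 bp 9 did. The promoter share was 57.1% under each definition of a promoter, while that of the table ranged from 28.6 to 35.8%. The planned edgeR test was not run, because the levels did not pass the check of whole reads set for it. With 2 libraries per genotype and a table kept by FDR, peaks without a difference are not analysed here.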
